A study of Mus musculus with 6 samples.

Results

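The G1 cyclins and the cyclin-dependent kinase (CDK) inhibitors other than p21 were examined in sorted mouse hair follicle cells after skin exposure to a carcinogen. The group was defined by name and comprised 10 genes, the cyclin genes Ccnd1, Ccnd2, Ccnd3, Ccne1 and Ccne2 and the inhibitor genes Cdkn1b, Cdkn1c, Cdkn2a, Cdkn2b and Cdkn2c. All array probes whose RefSeq accession maps to these symbols were taken, which gave 14 probes. Of these, 13 passed the detection filter, so that all 10 genes were among the 17848 genes tested. To pass, a probe had to read well above background on 3 or more of the 6 arrays, whatever their group.

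The DMBA group held 3 samples from male mice that were depilated and then received DMBA (7,12-dimethylbenz[a]anthracene), a polycyclic hydrocarbon that causes skin tumours, on the skin. The vehicle group held 3 samples from male mice that were depilated and received acetone. Samples came from different mice, and all were collected 3 days after exposure. Strain and age are not given in the sources used here. Cells were sorted as high for EGFP expressed under the keratin 15 promoter, high for integrin alpha 6 and negative for Sca1, a gate that the labels call hair follicle stem cells and hair germ. Depilation is known to start a new hair cycle, and both groups had it.

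D-type cyclins are made in response to growth signals and activate CDK4 and CDK6, and E-type cyclins activate CDK2 later in G1. Together these kinases phosphorylate the retinoblastoma protein and release E2F transcription factors, which switch on genes of DNA replication. The CIP/KIP inhibitors p27 (Cdkn1b) and p57 (Cdkn1c) bind cyclin-CDK complexes, mainly those of CDK2, whereas the INK4 inhibitors p16 (one product of Cdkn2a), p15 (Cdkn2b) and p18 (Cdkn2c) bind CDK4 and CDK6. The second product of Cdkn2a, ARF, stabilises p53 through MDM2. In hair follicle stem cells, long quiescence alternates with short bursts of division.

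RefSeq promoter sequences (build GRCm38.p6, 250 bases before to 50 after each start) were available for 6 of the 10 members, Ccnd3, Ccne1, Cdkn1b, Cdkn2a, Cdkn2b and Cdkn2c. The promoters of Ccne1 and Cdkn1b are shown because the groups did not overlap for these members, with Ccne1 higher and Cdkn1b lower in DMBA cells, and both starts of Cdkn2a because the gene makes 2 proteins from different first exons. Capitals mark matches, on either strand, to an E2F motif (TTTNNCGC), an Sp1 box (GGGCGG) or a CCAAT box (CCAAT). Over all 32851 promoters of the table, 5.17% held the E2F letters, 35.7% the Sp1 letters and 37.4% the CCAAT letters. The windows are chr7:38107441-38107740 on the minus strand for Ccne1, chr6:134920151-134920450 on the plus strand for Cdkn1b, and chr4:89294570-89294869 and chr4:89282143-89282442, both on the minus strand, for the upstream and downstream starts of Cdkn2a. Each is written 5′ to 3′ in the direction of transcription.
Ccne1: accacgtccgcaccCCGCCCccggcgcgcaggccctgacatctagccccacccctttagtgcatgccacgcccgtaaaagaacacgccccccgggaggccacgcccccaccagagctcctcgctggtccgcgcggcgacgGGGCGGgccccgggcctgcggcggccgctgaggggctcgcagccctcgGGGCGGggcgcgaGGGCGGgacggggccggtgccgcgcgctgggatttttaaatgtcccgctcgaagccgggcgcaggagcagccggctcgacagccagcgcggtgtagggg
Cdkn1b: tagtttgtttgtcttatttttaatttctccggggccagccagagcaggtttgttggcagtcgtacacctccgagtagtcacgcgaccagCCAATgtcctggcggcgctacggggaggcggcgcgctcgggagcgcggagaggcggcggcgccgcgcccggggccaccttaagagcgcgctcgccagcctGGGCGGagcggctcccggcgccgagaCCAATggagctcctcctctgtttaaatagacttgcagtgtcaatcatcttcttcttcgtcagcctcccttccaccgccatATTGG
Cdkn2a upstream start: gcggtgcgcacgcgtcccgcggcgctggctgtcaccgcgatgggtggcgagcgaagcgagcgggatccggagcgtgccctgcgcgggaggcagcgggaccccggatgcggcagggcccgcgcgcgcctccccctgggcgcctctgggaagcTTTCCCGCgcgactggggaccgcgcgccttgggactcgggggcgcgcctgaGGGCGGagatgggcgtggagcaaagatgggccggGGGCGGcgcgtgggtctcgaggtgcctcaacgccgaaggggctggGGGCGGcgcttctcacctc
Cdkn2a downstream start: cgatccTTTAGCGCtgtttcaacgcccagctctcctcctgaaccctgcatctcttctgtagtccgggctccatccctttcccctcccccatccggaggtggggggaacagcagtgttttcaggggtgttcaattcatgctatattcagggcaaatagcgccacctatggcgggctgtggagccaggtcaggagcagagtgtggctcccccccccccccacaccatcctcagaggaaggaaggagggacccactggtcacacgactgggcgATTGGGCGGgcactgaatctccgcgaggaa

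The E2F letters occurred 1 time in each Cdkn2a window and in no other member window of the table. The Ccne1 window held 4 Sp1 boxes, and the Cdkn1b window held 1 Sp1 box and 3 CCAAT boxes. In the downstream Cdkn2a window the CCAAT and Sp1 matches share bases, so that they appear as 1 run of capitals. A match describes the letters and is not a measured site. A window without a match says only that the letters are not in it.

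Values are log2 processed intensities relative to the 75th percentile of their array, so that 0 is the level of that percentile and a difference of 1 is a 2-fold change. They describe a probe, and no level is set against that of another gene. Each array's 75th percentile was an intensity of 1355 to 2222 on the DMBA arrays, lowest on DMBA 1, and 1758 to 2274 on the vehicle arrays, and 69.3% to 80.9% of probes on DMBA arrays and 77.0% to 83.6% on vehicle arrays were well above background. Arrays correlated about as well between groups (Pearson's r across genes 0.934 to 0.948) as within them (0.937 to 0.951). Vehicle 1 was alone on its slide and in its scan. The sort genes were detected on every array: Krt15 differed by 0.19 (SE 0.28) and Itga6 by -0.19 (SE 0.32) between the groups, which overlapped. Ly6a, which encodes Sca1, was above all vehicle values on the DMBA arrays, at 0.29, 0.27 and 0.13 against -0.20, -1.67 and -1.78 on the vehicle arrays (difference 1.45, SE 0.45, limma adjusted p = 0.854).

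Among the 10 members, Ccnd2 was the 1 gene with an unadjusted limma p below 0.05, and it was higher after DMBA. No member passed after Benjamini-Hochberg adjustment over all genes, and 0% of the 17848 genes did, the smallest adjusted p being 0.438. At the unadjusted threshold, 2.73% of all genes were called higher and 2.49% lower. All DMBA values lay above all vehicle values for Ccnd2 and Ccne1, as for 4.87% of all genes, and below them for Cdkn1b, as for 5.17% of all genes. Member differences were positive for 6 genes and negative for 4, with a median of 0.12, against 8701 positive and 9147 negative with a median of -0.01 over all genes. With 3 arrays against 3, the smallest two-sided p of an exact permutation test is 0.1, which Ccnd2, Ccne1 and Cdkn1b reached. These are RNA levels of a sorted population, in which a shift in the share of cells of a type cannot be told apart from a shift in RNA per cell.

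**Figure D1:**
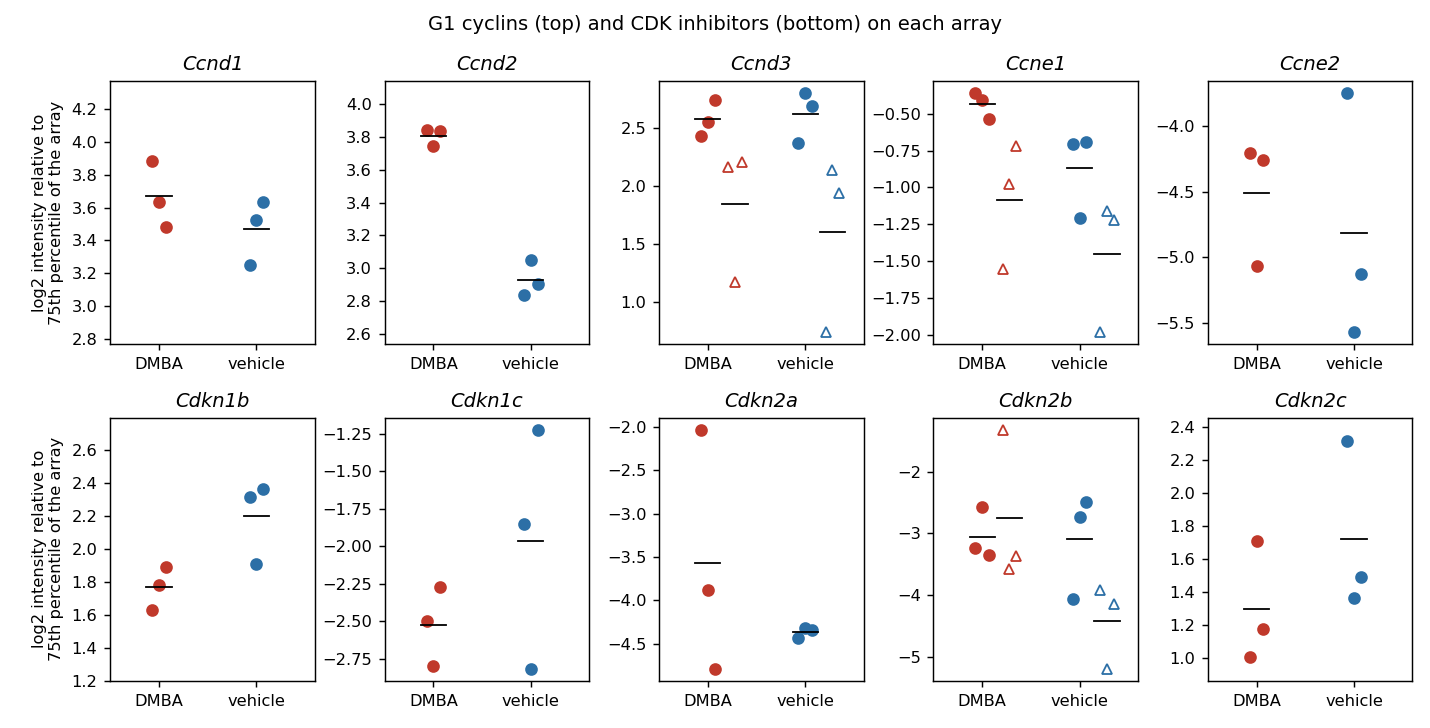
Log2 intensity relative to the array's 75th percentile (vertical axis) of each member on the 3 DMBA arrays (red, left) and the 3 vehicle arrays (blue, right). Circles are the brightest kept probe of the gene, open triangles its other kept probe, and bars group means. Circles separate by group for Ccnd2, Ccne1 and Cdkn1b, and only the triangles do so for Cdkn2b.

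Of the D cyclins, Ccnd2 was 1.83-fold higher in DMBA cells, while Ccnd1 and Ccnd3 overlapped between the groups. Ccnd2, which encodes cyclin D2 and lies on chromosome 6, is read by 1 probe (A_52_P53906). It stood at 3.84, 3.75 and 3.83 on the DMBA arrays, against 2.84, 3.05 and 2.91 on the vehicle arrays. The groups were 0.69 apart at their closest, and the DMBA values lay within a narrower span than the vehicle values. Means were 3.81 ± 0.05 in DMBA cells and 2.93 ± 0.11 in vehicle cells (SD, n = 3 each). The limma difference was 0.87 (SE 0.20), a fold change with a 95% confidence interval of 1.30 to 2.58, with an adjusted p of 0.680 over all genes and an exact permutation p of 0.1. It passed the unadjusted threshold of 0.05 and, in order of p, ranked 117 among the 17848 genes.

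The Ccnd2 difference kept its sign and an unadjusted limma p below 0.05 in all 16 processing alternatives, which gave 0.83 to 0.93. Its adjusted p stayed between 0.351 and 0.916 over them. For a gene with 1 probe, the filters, the mean of probes, the intensity trend and the replicate block cannot change the difference. They alter at most its p. Without vehicle 1, the array on its own slide, the difference was 0.83 (limma adjusted p = 0.853), and the slide block repeats that fit. The difference was therefore larger than the spread between these replicates, but at this number of arrays it did not stand out after adjustment for all genes.

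Over the 6 arrays, the genes whose values followed Ccnd2 most closely were Sectm1b (Pearson's r = 0.997), Axin2 (0.995) and Sh2d2a (0.987). These correlations are descriptions of 6 points that fall into the 2 treatment groups, and they carry no test. Axin2 encodes a negative feedback regulator of Wnt signalling and Sh2d2a an adaptor with an SH2 domain. Their differences were 1.86 (SE 0.23) for Sectm1b, 2.37 (SE 0.29) for Axin2 and 0.86 (SE 0.20) for Sh2d2a. On the second probe the values were 0.39 for Axin2 and 0.33 for Sh2d2a, with overlapping groups.

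Ccnd1, which encodes cyclin D1 and lies on chromosome 7, is read by 1 probe (A_66_P111562). Its values were 3.89, 3.64 and 3.48 in DMBA cells, against 3.25, 3.52 and 3.64 in vehicle cells. The groups overlapped, with the highest value on DMBA 1 and the lowest on vehicle 1. The difference of 0.20 (SE 0.23, limma adjusted p = 0.9996) has a 95% confidence interval of -0.37 to 0.77. That interval ends below the Ccnd2 difference of 0.87 but overlaps the Ccnd2 interval, 0.38 to 1.37. The difference between the Ccnd1 and Ccnd2 changes was not tested.

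Ccnd3, which encodes cyclin D3 and lies on chromosome 17, has 2 probes that gave no difference beyond their spread. On the brighter probe (A_55_P2041075) it stood at 2.43, 2.55 and 2.73 in DMBA cells, against 2.36, 2.80 and 2.69 in vehicle cells. The groups overlapped on it almost fully, with a difference of -0.05 (SE 0.23). On the other probe (A_51_P238448) the values were 2.16, 1.18 and 2.21 in DMBA cells, against 0.74, 2.14 and 1.93 in vehicle cells. That probe had 1 low array in each group, DMBA 2 and vehicle 1, and a difference of 0.24 (SE 0.49).

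Of the E cyclins, Ccne1 was higher on average after DMBA without passing the test, and Ccne2 had no settled direction. Ccne1 encodes cyclin E1 and lies on chromosome 7. Its brighter probe (A_51_P408946) read -0.36, -0.41 and -0.53 in DMBA cells, against -0.70, -1.20 and -0.69 in vehicle cells. Every DMBA value was above every vehicle value, with 0.16 between the closest pair. The difference was 0.43 (SE 0.24), a 1.35-fold change with a 95% interval of 0.90 to 2.02 and a limma adjusted p of 0.990. It was 0.26 without vehicle 2, the lowest array.

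The other Ccne1 probe (A_66_P125327) read -1.55, -0.97 and -0.72 in DMBA cells, against -1.98, -1.16 and -1.22 in vehicle cells. Its groups overlapped, since DMBA 1 lay below vehicle 2 and vehicle 3, and the difference was 0.37 (SE 0.35). The mean of both probes also overlapped.

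Ccne2, which encodes cyclin E2 and lies on chromosome 4, was dim, and its probe (A_65_P10671) was well above background on 2 DMBA arrays and 3 vehicle arrays. Its values were -4.21, -5.07 and -4.26 in DMBA cells, against -3.75, -5.57 and -5.12 in vehicle cells. Vehicle arrays held both the highest and the lowest value. The difference of 0.30 (SE 0.53) was 0.84 without vehicle 1 and -0.07 without vehicle 2, so that 1 vehicle array decides its sign.

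**Figure D2:**
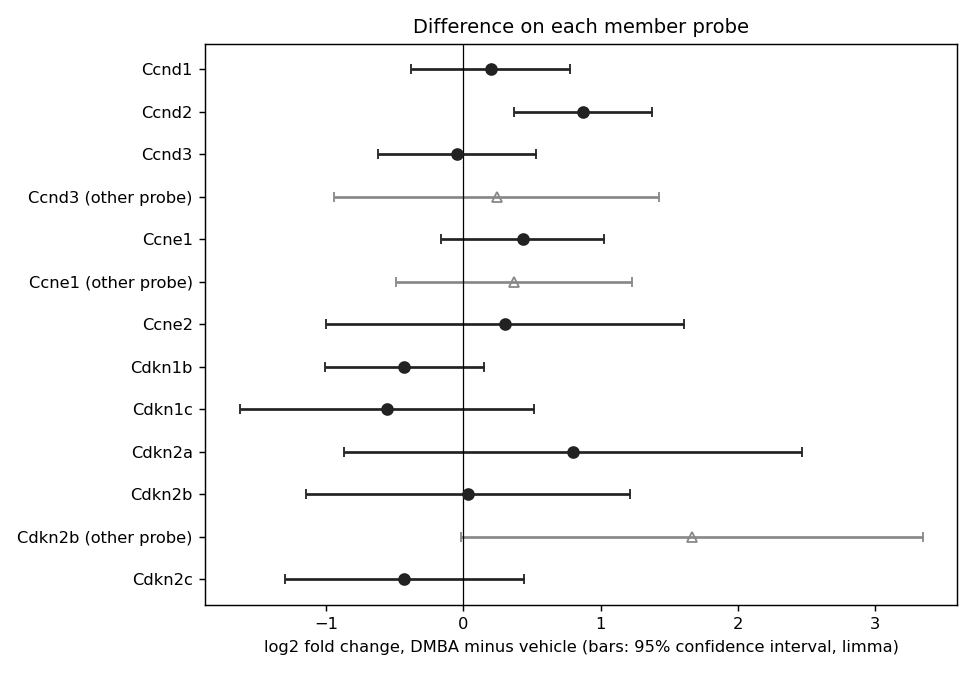
Log2 fold change of DMBA minus vehicle (horizontal axis) for each of the 13 kept probes, with 95% confidence intervals from limma fitted over all kept probes. Filled circles are the probe used for the gene and open triangles its other probe, and the interval of Ccnd2 alone leaves out 0.

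The CIP/KIP inhibitors were both lower on average in DMBA cells, and neither passed the test. Cdkn1b encodes p27, which restrains CDK2 in resting cells, and lies on chromosome 6, as Ccnd2 does. On its 1 probe (A_55_P2026562) it stood at 1.63, 1.78 and 1.89 in DMBA cells, against 2.32, 1.91 and 2.37 in vehicle cells. The groups did not overlap, but DMBA 3 and vehicle 2 were 0.0192 apart. Means were 1.77 ± 0.13 in DMBA cells and 2.20 ± 0.25 in vehicle cells (SD, n = 3 each), a difference of -0.43 (SE 0.23), or 0.742 of the vehicle level, with a 95% interval of -0.998 to 0.138 on the log2 scale. The limma adjusted p was 0.990. Over 16 alternatives, several of which cannot change the difference of a gene with 1 probe, the difference stayed between -0.57 and -0.35. None brought it past the unadjusted threshold.

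Cdkn1c encodes p57, is imprinted, and lies on chromosome 7. On its 1 probe (A_51_P339540) it stood at -2.50, -2.79 and -2.27 in DMBA cells, against -1.85, -2.82 and -1.22 in vehicle cells. Vehicle 2 was the lowest of the 6 arrays and the other vehicle arrays the highest. The difference was -0.56 (SE 0.43, limma adjusted p = 0.9996). It was -0.98 without vehicle 2, which passed the unadjusted threshold (limma adjusted p = 0.930), and -0.19 without vehicle 3. Of 8 genes listed from the same imprinted domain and its surroundings, 5 were tested, and on their brightest probes all 5 had positive differences with a median of 0.42, while none had an unadjusted p below 0.05. That sign rests on the choice of probe for Kcnq1ot1, whose other kept probe differed by -1.89 (SE 0.86) with overlapping groups. Kcnq1ot1, the noncoding RNA that silences Cdkn1c in cis on the paternal chromosome, was the one of them without overlap on its brightest probe, a gene named after its values were seen. That probe read -2.15, -2.22 and -2.52 in DMBA cells, against -2.67, -3.02 and -7.63 in vehicle cells, so that vehicle 3 carries most of its difference of 2.14 (SE 1.29), and it was above background on 2 of the vehicle arrays.

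The INK4 genes gave no difference that held on every probe and array. Cdkn2a lies on chromosome 4 beside Cdkn2b. Its brighter probe (A_55_P2008437) read -2.03, -3.88 and -4.79 in DMBA cells, against -4.43, -4.32 and -4.34 in vehicle cells. The vehicle values were nearly equal (SD 0.06), whereas the DMBA values spread widely (SD 1.40), with DMBA 1 the highest and DMBA 3 the lowest of all arrays. The difference of 0.80 (SE 0.68, limma adjusted p = 0.9996) was 0.03 without DMBA 1 and 1.41 without DMBA 3. The second probe (A_55_P2008438) was above background on none of the 6 arrays. Both probes carry the same RefSeq record, and which of p16 and ARF either one reads is not known here.

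The probes of Cdkn2b, which encodes p15, a known target of TGF-beta signalling, disagreed. The probe with the higher mean (A_55_P1988183) read -3.25, -2.57 and -3.36 in DMBA cells, against -4.06, -2.73 and -2.49 in vehicle cells. Its groups overlapped, with a difference of 0.04 (SE 0.48). The other probe (A_55_P1979526) read -1.32, -3.58 and -3.36 in DMBA cells, against -3.92, -5.20 and -4.14 in vehicle cells. Every DMBA value was above every vehicle value on it, with a difference of 1.67 (SE 0.69), or 3.17-fold, that missed the unadjusted threshold (limma adjusted p over all probes 0.99995). The difference was 0.95 without DMBA 1, 1.28 without vehicle 2 and 2.08 without DMBA 2, and it passed the unadjusted threshold without DMBA 2. It also passed where all 6 arrays had to be above background, and in the fits with an intensity trend, a covariate or a replicate block. The difference between the 2 probes was not tested. With the mean of both probes Cdkn2b differed by 0.85, which also missed the unadjusted threshold. Of all 44955 kept probes, 2.68% were called higher and 2.22% lower at the unadjusted threshold and 0% after adjustment. Ccnd2 was the 1 member called among the 13 kept probes.

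DMBA 1, which held the highest value of Cdkn2a and of the second Cdkn2b probe, also stood apart in other genes. Mki67, a proliferation marker, read 2.83 on it and 4.75 and 4.66 on the other DMBA arrays, against 4.89, 4.70 and 4.91 on the vehicle arrays. Itga6 was lowest on DMBA 1, at 1.76. The part of these shifts in the INK4 values was not tested.

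Cdkn2c, which encodes p18 and also lies on chromosome 4, is read by 1 probe (A_55_P2074796). It stood at 1.00, 1.71 and 1.17 in DMBA cells, against 2.32, 1.36 and 1.49 in vehicle cells. The groups overlapped, with the highest value on vehicle 1. The difference was -0.43 (SE 0.35, limma adjusted p = 0.9996) and -0.13 without vehicle 1.

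**Figure D3:**
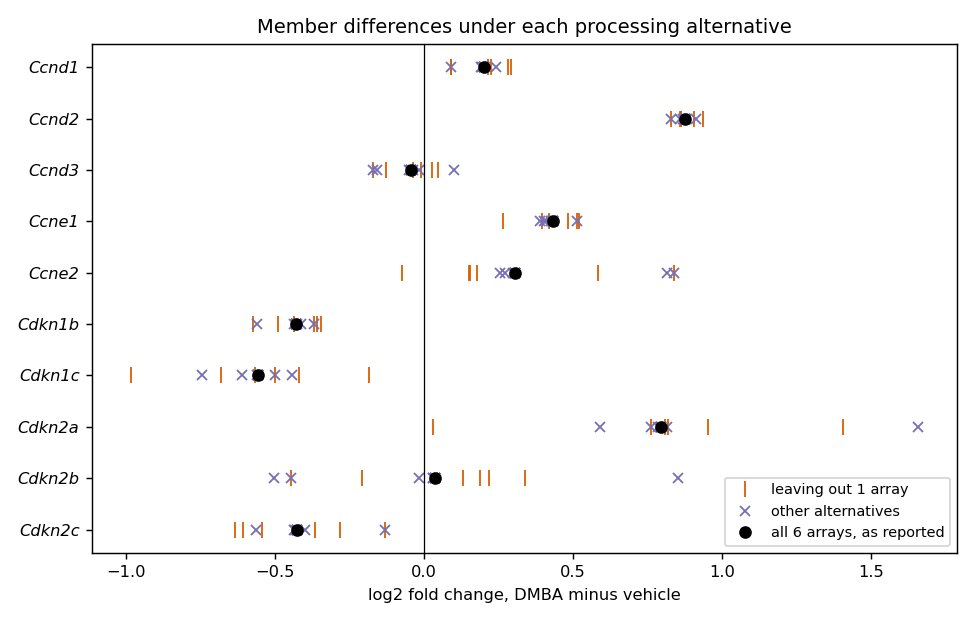
Log2 fold change of DMBA minus vehicle (horizontal axis) for each member with all 6 arrays (black circles), with each array left out (orange ticks) and under the other processing alternatives (purple crosses). Ccnd2 lies between 0.83 and 0.93 throughout, whereas Ccnd3, Ccne2 and Cdkn2b lie on both sides of 0.

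As classes, 4 of the 5 cyclins had a positive difference with a median of 0.30, and 3 of the 5 inhibitors a negative one with a median of -0.43. The sign held in every alternative for Ccnd1, Ccnd2, Ccne1 and Cdkn2a, which were positive, and for Cdkn1b, Cdkn1c and Cdkn2c, which were negative. It held in 13 of 16 alternatives for Ccnd3, 14 of the 15 that tested Ccne2, and 11 of 16 for Cdkn2b. All these tallies include the filters, the intensity trend and the replicate block, which left every member's difference unchanged. The mean of probes cannot change it for members without another kept probe. The slide block repeats the fit without its lone array. The tallies therefore overstate how often the sign was put to a test. Leaving out vehicle 2 added Cdkn1c to the members with an unadjusted p below 0.05, which made 2. Leaving out DMBA 3 brought the members without overlap to 5, by adding Ccnd1 and Cdkn2a to Ccnd2, Ccne1 and Cdkn1b. With 2 arrays against 3, separation is more common, and 18.7% of all genes had it in that setting, against 10% with all 6 arrays.

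**Figure D4:**
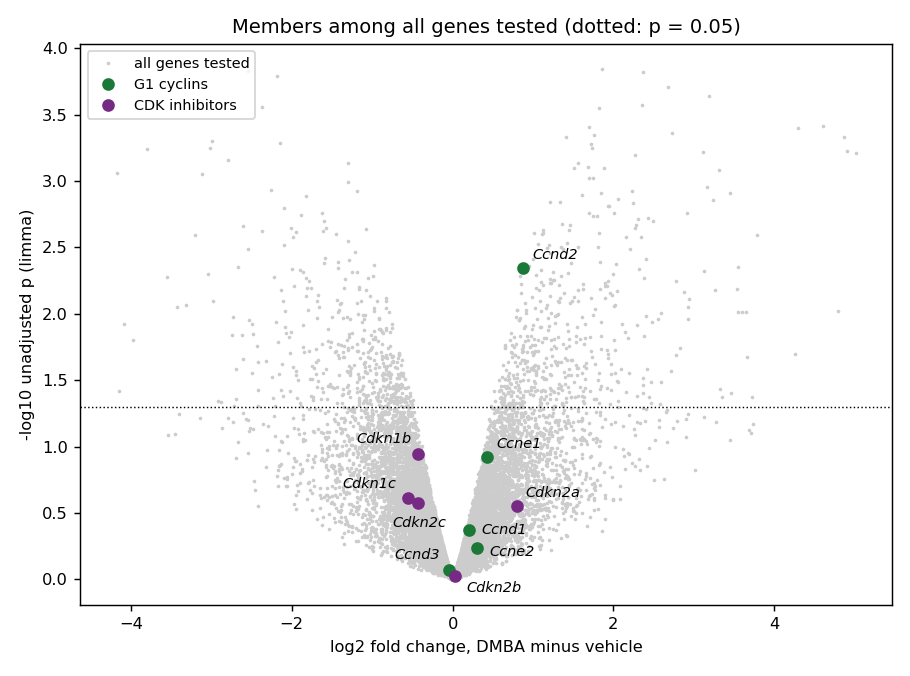
Log2 fold change of DMBA minus vehicle (horizontal axis) against minus log10 of the unadjusted limma p (vertical axis) for 17848 genes in grey, with the 5 cyclins in green and the 5 inhibitors in purple. Ccnd2 is the 1 member above the dotted line, which marks the unadjusted threshold of 0.05.

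Cdkn1a, which encodes p21 and is a target of p53, is shown beside the members as the remaining CIP/KIP gene. It stood at 2.42, 2.46 and 2.30 in DMBA cells, against -0.09, 0.74 and 0.88 in vehicle cells, a difference of 1.88 (SE 0.31, limma adjusted p = 0.445). On its second probe Cdkn1a differed by 2.96 (SE 0.31), also without overlap. No member inhibitor lay above all vehicle values on its brighter probe. The other INK4 gene listed, Cdkn2d, differed by -0.43 (SE 0.29), and the CDK phosphatase gene Cdkn3 by 0.24 (SE 0.36).

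Of 64 other genes listed for the G1 to S pathway, 63 were tested, 30 with positive and 33 with negative differences and a median of -0.01. At the unadjusted threshold 2 were higher and 1 lower, against 2.73% and 2.49% of all genes. On the brightest probe of each gene, 4 were higher and 4 lower without overlap, against 4.87% and 5.17% of all genes. Among the 8 kinase and kinase regulator genes, Cdk6, a partner of the D cyclins, read -1.28, -1.01 and -1.17 in DMBA cells, against -1.96, -1.84 and -1.35 in vehicle cells. These groups did not overlap, and the difference was 0.56 (SE 0.25, limma adjusted p = 0.963). Cdk4, the other D cyclin partner, differed by 0.17 (SE 0.30), and Cdk2, the E cyclin partner, by -0.42 (SE 0.26), both with overlapping groups. Rb1, which encodes the retinoblastoma protein, read 1.87, 1.47 and 1.53 in DMBA cells, against 1.44, 0.51 and 1.03 in vehicle cells (difference 0.63, SE 0.31). It was the one gene without overlap among 14 pocket protein and E2F complex genes, of which 8 were positive with a median of 0.05, on the brightest probes. On its second probe Rbl1, which encodes the pocket protein p107, was lower without overlap (-0.82, SE 0.26), against -0.48 (SE 0.46) with overlap on its brightest. E2f1 differed by 0.08 (SE 0.27).

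**Figure D5:**
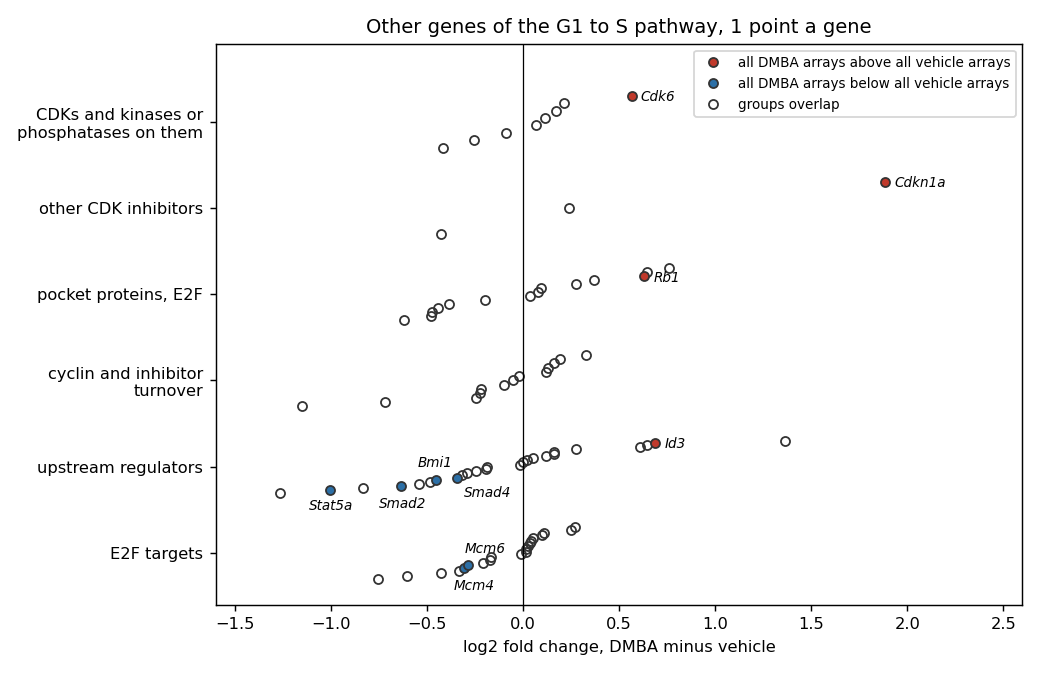
Log2 fold change of DMBA minus vehicle (horizontal axis) for 83 genes of 6 lists (rows), 1 point a gene, sorted within each row. Red points are genes whose DMBA values all lie above the vehicle values, blue points those all below, and most points are open, with overlapping groups.

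The 13 genes for degradation of G1 cyclins and p27 had 5 positive and 8 negative differences, a median of -0.05 and no gene without overlap on its brightest probe. A further probe of Gsk3b, a kinase that marks cyclin D1 for degradation, was lower without overlap (-1.01, SE 0.23), against 0.19 (SE 0.26) and 0.10 (SE 0.32) on its other probes. Of 26 upstream regulators of the members, 25 were tested, with 10 positive and 15 negative differences and a median of -0.19. Stat5a, a transcription factor of cytokine signalling, read -3.39, -2.71 and -2.14 in DMBA cells, against -1.32, -2.02 and -1.88 in vehicle cells (difference -1.01, SE 0.39, limma adjusted p = 0.942). Cbx7, a Polycomb protein known to repress Cdkn2a, differed by 1.36 (SE 0.55, limma adjusted p = 0.942), but it was above background on 2 of the vehicle arrays and its groups overlapped. 4 further regulators had groups without overlap and were named after their values were seen, Id3 (0.69) upward and Smad2 (-0.64), Bmi1 (-0.46) and Smad4 (-0.35) downward. With Stat5a included, 1 of the 25 was higher and 4 were lower without overlap, against 4.87% and 5.17% of all genes. On second probes, Bmi1 (-0.23) and Smad4 (-0.14) overlapped between the groups. Smad2 and Smad4 carry TGF-beta signals, and Bmi1 is a Polycomb repressor of Cdkn2a.

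The 20 E2F target genes of DNA replication and proliferation had 10 positive and 10 negative differences and a median of 0.0013. Mcm4 (-0.31) and Mcm6 (-0.29), subunits of the replicative helicase, were named after their values were seen. They were the 2 genes without overlap on the brightest probe, both lower, and 5.17% of all genes were lower without overlap. Cdk1, the mitotic kinase gene, was lower without overlap on 1 of its other probes (-0.46, SE 0.25). Summed on the linear scale, in multiples of the array's 75th percentile, the list stood at 189 to 199 on the DMBA arrays and 211 to 223 on the vehicle arrays. That sum gives bright genes more weight than the median does. The gene median thus was near 0 while the sum was lower on every DMBA array.

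Markers of other cells are given beside these values by their counts and medians on the brightest probe of each gene. Of 8 fibroblast markers 6 were tested, 4 with positive and 2 with negative differences and a median of 0.30, and Pdgfra, a defining gene, was above background on no array. Dcn, a proteoglycan gene (1.51, SE 0.25, limma adjusted p = 0.445), and the collagen gene Col1a1 (1.29, SE 0.57) had groups without overlap, whereas the collagen gene Col3a1 differed by -0.52 (SE 0.34). Summed in multiples of the 75th percentile, the 6 genes stood at 3.71 to 6.81 on DMBA arrays and 3.12 to 4.47 on vehicle arrays. The list thus had members on both sides of 0 and sums that overlapped.

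The 7 melanocyte markers had 3 positive and 4 negative differences, a median of -0.05 and sums of 4.09 to 6.71 on DMBA arrays and 2.54 to 4.38 on vehicle arrays. Mlana, a melanosome gene, was higher by 2.72 (SE 0.95) with overlapping groups, and Pmel, another one, differed by -0.47 (SE 1.20). Tyrp1, a pigment enzyme gene, was above background on all 3 DMBA arrays but on 1 vehicle array, so that its vehicle level is in large part a floor. The 7 leukocyte markers had 4 positive and 3 negative differences and a median of 0.07. Among them H2-Eb1 was higher by 2.30 (SE 0.45) without overlap and Cd74 differed by -0.54 (SE 0.72) with overlap, both genes of MHC class II presentation. Sums of the leukocyte list were 87.8 to 142 on DMBA arrays and 91.1 to 114 on vehicle arrays, which is almost wholly the Itgam probe and says little of the other 6 markers.

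The 8 markers of epidermis outside the gate, Ly6a included, had 5 positive and 3 negative differences, a median of 0.08 and sums of 56.1 to 85.4 on DMBA arrays and 54.6 to 80.6 on vehicle arrays. Ivl, another gene of this list, was lower without overlap on its second probe (-1.26, SE 0.38), against -0.53 (SE 0.97) with overlap on its brightest. The 11 markers of follicle stem cells had 4 positive and 7 negative differences, a median of -0.08 and sums of 366 to 533 on DMBA arrays and 353 to 412 on vehicle arrays. Those sums are mostly the keratin genes Krt14, Krt5 and Krt15 and say little of the other markers, and the highest was on DMBA 1. Lgr5, which marks cycling and lower bulge follicle stem cells, differed by -0.64 (SE 0.22, limma adjusted p = 0.894) without overlap. Sox9, another gene of this list, was also lower without overlap (-0.50, SE 0.24). These were 2 of the 11 markers, against 5.17% of all genes lower without overlap. Of 6 endothelial and muscle markers 5 were tested, with a median of 0.02 and sums of 2.52 to 3.10 on DMBA arrays and 2.51 to 2.74 on vehicle arrays. Of 4 red cell markers 2 were tested, both positive, with sums of 0.295 to 1.21 on DMBA arrays and 0.126 to 0.417 on vehicle arrays. The 8 genes of dissociation stress had 6 positive and 2 negative differences and a median of 0.50. Their sums were 24.7 to 27.3 on DMBA arrays and 23.1 to 27.7 on vehicle arrays. Ier2 (1.23, SE 0.42) and Fosb (0.63, SE 0.29) were higher without overlap, 2 of the 8 genes against 4.87% of all genes. The part of these cells and signals in the Ccnd2, Ccne1 and Cdkn1b values was not tested.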

How the data were processed

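RNA of 3 DMBA and 3 vehicle samples was measured on 1-colour Agilent arrays labelled with Cy3. The submitters' processing notes name Agilent Feature Extraction, version 10.7.1.1. The deposited scanner files hold spot intensity after that software's background correction, per the file headers, and the deposited table of the series holds intensity divided by each array's 75th percentile, used as an alternative. Here the log2 processed intensity minus the log2 75th percentile over non-control spots was taken in R 4.3.3. The 3671 control spots and all spots flagged as outliers were left out, and the remaining spots of a probe were averaged. That left 45 values, each of 1 probe on 1 array, missing. No spot was saturated. Of 55681 probes, 44955 were kept, and 28331 of all probes got a symbol by RefSeq accession through the table of GRCm38.p6, which served for naming alone. A gene was represented by its kept probe of highest mean, and 4641 genes had more than 1. limma 3.58.1 (lmFit, eBayes, two-sided, no block) was fitted over all genes and over all kept probes, with Benjamini-Hochberg adjustment over each and checked on simulated data. The threshold was 0.05. The number of arrays limits the precision.

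The members and lists were chosen with earlier results of these data known. Named by rule were all members, up to 4 genes of each other list with an unadjusted p below 0.05, a few core pathway and sort genes, and the 3 genes most like the member of smallest p. Other genes were named outside this rule with their values known, among them Col1a1, Col3a1, Pmel, Cd74, Ivl, Sox9, Fosb, Rbl1, Gsk3b and Cdk1. The files used here hold no mean signal column, so the normexp alternative used median signals. Alternatives covered background correction, normalization, filter, probe choice, an intensity trend, a covariate, slide, replicate number and each array left out.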

Additional observations from a re-analysis of the deposited data

How the results depend on the processing

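Over the alternatives, Ccnd2 kept its direction and an unadjusted limma p below 0.05, and on the probe used for the gene no other member did so except Cdkn1c without vehicle 2. Signs turned for dim or near-zero members: Ccnd3 gave 0.10 with the mean of its probes and -0.17 to 0.046 with 1 array left out, Ccne2 gave -0.074 to 0.84 with 1 array left out, and Cdkn2b, at 0.04 with all arrays, gave 0.85 with the mean of its probes, -0.016 after quantile normalization, -0.50 with each array's share of detected probes as a covariate, -0.45 with the slide as a block and -0.45 to 0.34 with 1 array left out. The cause was not tested. The covariate moved the median of all genes to 0.10. The unadjusted count of 933 genes was 1713 without the filter, which tests more genes, and 887 to 1227 with 1 array left out. The adjusted count of 0 was 0 to 1 genes with 1 array left out (1 without vehicle 2), and 3 probes against 0 after normexp. Members with an unadjusted p below 0.05 numbered 1 to 2 and those without overlap 3 to 5 with 1 array left out. In those fits 18.6% to 24.3% of all genes had no overlap, against 10% with all 6 arrays. Overlap was not counted in fits with a trend, covariate or block. Ccne2 was not tested when all 6 arrays had to be above background. With the slide as a block the values equal those without vehicle 1, its lone array. An intensity trend or a replicate block changed the SE of a member's difference but not the difference itself.

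Samples with the same replicate number did not deviate together (correlations 0.018, -0.020 and 0.058). With the replicate block Ccnd2 differed by 0.87 (limma adjusted p = 0.863), and 979 genes had an unadjusted p below 0.05. Probes near the array floor, -8.01 to -7.32 on DMBA arrays and -8.73 to -8.23 on vehicle arrays, have limited precision. The floor was higher on every DMBA array than on any vehicle array, so values at the floor read higher on DMBA arrays. The undetected Cdkn2a probe, for example, had a mean of -7.45 on DMBA arrays and -8.26 on vehicle arrays.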
